A study of Danio rerio with 2 samples.

Results

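The lipid kinases of the phosphoinositide 3-kinase (PI3K) family and the kinase Pdpk1, which acts just below them, were examined in larvae that lack NOD1, an intracellular sensor of bacterial peptidoglycan. The genes were chosen by symbol, as all rows of the zebrafish mTOR signaling PCR array whose symbol begins with pik3 or pdpk1. This gave 5 of the 84 pathway genes on the array, namely *pik3cb*, *pik3cd*, *pik3cg*, *pik3c3* and *pdpk1b*. WT (AB/TU) larvae were compared with larvae of *NOD1-1IS*-/-, a single Cas9/gRNA line that is homozygous for a 1 bp insertion in *NOD1*, both untreated and collected at 10 dpf. Each genotype was measured in 3 biological replicates, and each replicate was a pool of 200 to 250 whole larvae. The homozygous line was made by self-fertilisation of heterozygotes. For its hatching and survival assays the paper took eggs from separate WT and *NOD1-1IS*-/- parents. The larvae of the array are not stated to be siblings. Differences between the lines other than *NOD1*, and a lack of NOD1 in the mother, cannot be told apart from the mutation in the larvae. The paper reports delayed hatching and lower larval survival in the mutant. A difference in stage, or between surviving larvae and all larvae, likewise cannot be told apart here. The gene *nod1* is not among the rows of the plate, and the genotype of a replicate was therefore not checked on its own transcript.

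Class I PI3K enzymes are pairs of a catalytic and a regulatory subunit that phosphorylate the membrane lipid PIP2 to PIP3 when receptors for growth factors, insulin or chemokines are engaged. PIP3 draws Akt and Pdpk1 to the membrane, where Pdpk1 phosphorylates Akt in its activation loop. The activity of these enzymes is set largely by recruitment and phosphorylation, which transcript levels do not read. The array was run to learn whether genes of the PI3K, Akt and mTOR cascade differ in expression when NOD1 is lost. None of the rows chosen by symbol is a regulatory subunit or *pdpk1a*, so these were not analysed here. On its PI3K-Akt array the paper reports lower expression of the regulatory subunit gene *PIK3R2* and of *pdk1*, *tlr4bb* and *itgb1b* in the mutant. It reports higher expression of *eif2ak2* there. By western blot it also reports less Akt protein and less phosphorylation of Akt and several of its substrates in mutant larvae. The paper's reading that PI3K-Akt signaling is inhibited thus rests on protein as well as on transcripts. Protein and phosphorylation are not measured by the plate described here.

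Every gene well of the plate gave a threshold cycle (Ct, the cycle at which the product crosses a fixed level) within the 40 cycles run. The wells for genomic DNA and the reverse transcription control gave 0 of 24, so genomic DNA was not detected and the efficiency of reverse transcription was not read. Early cycles mean much template, and each cycle earlier is 1 unit of log2 if the product doubles. ΔCt is the Ct of a gene minus the average over *hprt1*, *nono* and *rpl13a*, so a high ΔCt means low expression, and values of replicates are given in the order of their numbers 1, 2 and 3. The log2 fold change is the *NOD1-1IS*-/- minus the WT average of −ΔCt. A fixed template in the positive PCR control wells read 19.5 ± 0.22 cycles in *NOD1-1IS*-/- and 19.7 ± 0.005 in WT (SD of replicate averages, n = 3). In whole larvae, fewer cells of a type and less RNA per cell cannot be told apart, and the rows hold no set of markers with which to check the tissues of the larvae.

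None of the 5 genes passed an adjusted p of 0.05 between the genotypes (limma with Benjamini-Hochberg adjustment over 84 genes). Of the 84 pathway genes, 19% were called lower and 3.57% were called higher in *NOD1-1IS*-/- by the same fit, that is 16 and 3 genes, which became 7 and 19 with all 5 reference genes of the plate. The 5 genes had log2 fold changes from −0.38 (*pik3cb*) to 0.38 (*pik3cd*). Their median of 0.01 was the value of *pik3c3*, against −0.11 over all 84 genes. With an unadjusted p under 0.05 there were 2 of the 5 genes, *pik3cb* and *pik3cd*, which lay in opposite directions, and 27 of the 84 (32.1%). On ΔCt all mutant pools lay on one side of all WT pools for 1 of the 5 genes, *pik3cb*, beside 38.1% of the 84. The catalytic genes stood at different places among the 84, from *pik3cb* at rank 16 from the lowest to *pik3cg* at rank 71 and *pik3cd* at rank 82.

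**Figure D1:**
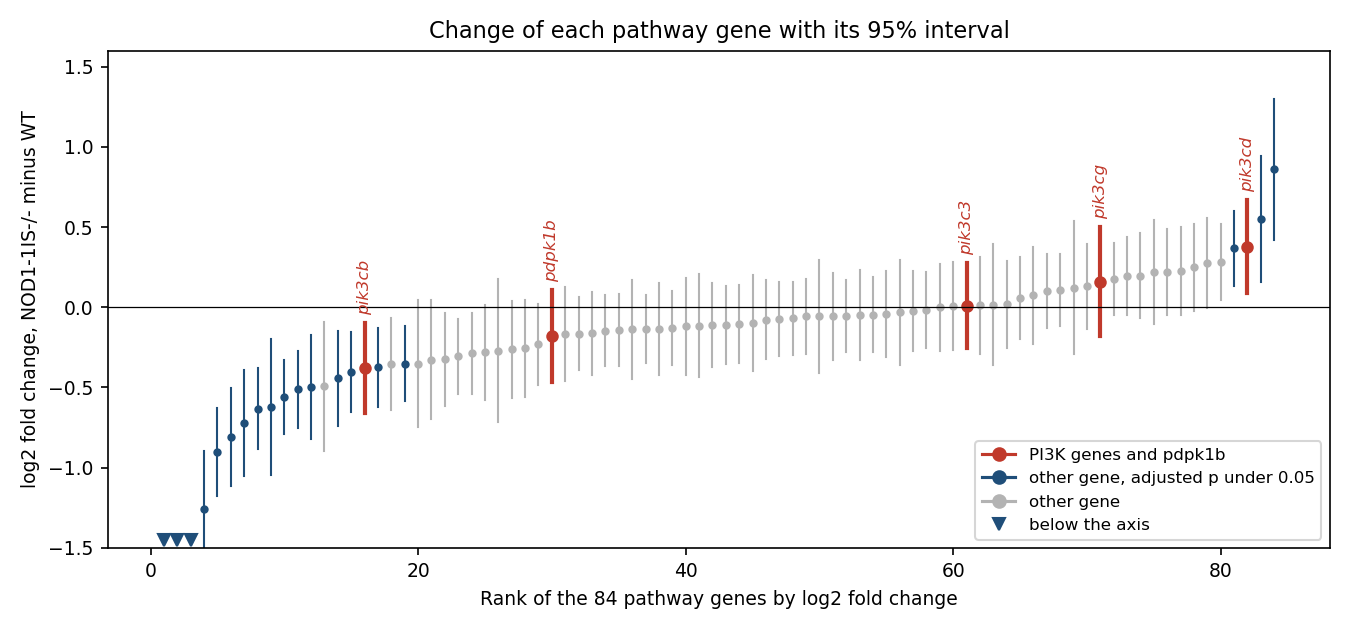
The log2 fold change (*NOD1-1IS*-/- minus WT) of each of the 84 pathway genes with its 95% interval from limma, in order of size. The 5 genes described here are in red, other genes with an adjusted p under 0.05 in blue and the rest in grey, and 3 genes below −1.5 are drawn as triangles at the edge. With this reference the intervals of *pik3cb* and *pik3cd* lie on opposite sides of 0 and those of the other three cross it.

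The gene *pik3cb* (XM_001923222) codes for the class I catalytic subunit p110β, which in mammals is broadly expressed and can be switched on by G protein-coupled receptors as well as by receptor tyrosine kinases. Its ΔCt was 3.73, 3.82 and 4.14 cycles in the mutant pools, against 3.53, 3.58 and 3.45 in WT. All 3 mutant pools were thus lower in expression than all 3 WT pools, with replicate 3 the lowest of the mutants (exact permutation test, two-sided, p = 0.1, the smallest that 3 against 3 allow). This was a log2 fold change of −0.38 (SE 0.13, 95% interval −0.66 to −0.10, adjusted p = 0.0552 from limma), or 1.30-fold lower. When each replicate was instead centred on its median pathway gene, which uses no reference gene, *pik3cb* was at −0.24 (adjusted p = 0.275 from limma), and the genotypes overlapped. On raw Ct the difference was −0.08 on the log2 scale. Without *NOD1-1IS*-/- replicate 1 the adjusted p of *pik3cb* was 0.0310 in limma, and over all its alternatives it lay between 0.0023 and 0.674.

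The gene *pik3cd* (NM_201199) codes for the catalytic subunit p110δ, which in mammals is found mainly in leukocytes and signals below antigen and cytokine receptors. Mutant pools had a ΔCt of 5.53, 5.81 and 5.50 cycles, and WT pools of 6.11, 6.07 and 5.79. Mutant replicates 1 and 3 were higher in expression than every WT pool, whereas mutant replicate 2 lay just below WT replicate 3, so the genotypes overlapped (exact permutation test, two-sided, p = 0.2). The average difference was 0.38 on the log2 scale (SE 0.13, 95% interval 0.09 to 0.67, adjusted p = 0.0618 from limma), or 1.30-fold higher. Centred on the median pathway gene, the 3 mutant pools were at −2.16, −2.44 and −2.19 and the WT pools at −2.81, −2.77 and −2.75 on the log2 scale. On this scale the genotypes did not overlap (exact permutation test, two-sided, p = 0.1), and the log2 fold change was 0.52 (adjusted p = 0.0125 from limma). The raw Ct also did not overlap, at 24.79, 25.21 and 24.85 cycles in the mutant against 25.80, 25.57 and 25.52 in WT. This raw difference of 0.68 stands beside one of 0.19 for the median pathway gene and 0.21 for the positive PCR control (log2). On raw Ct limma called 21 of the 84 genes higher. The share of the 84 genes without overlap was counted neither on the median-centred scale nor on raw Ct. With every reference tried *pik3cd* had a log2 fold change above 0, between 0.17 with *nono* alone and 1.38 with *acta1b* alone. Its adjusted p in limma was under 0.05 in 9 of the 21 alternatives that give a p, among them the fit without *NOD1-1IS*-/- replicate 2 (0.0427). Over the 21 the adjusted p ran from 1.02e-05 with *b2m* alone to 0.365 with *nono* alone. In both of these fits limma gave all genes 1 common standard error, and with *b2m* alone it called 39 of the 84 genes higher.

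The gene *pik3cg* (XM_687605) codes for the catalytic subunit p110γ, the form that responds to Gβγ below chemokine receptors and, in mammals, is also concentrated in leukocytes. It was among the later amplifying genes, with a ΔCt of 6.87, 6.75 and 7.32 cycles in the mutant and 7.27, 7.14 and 7.01 in WT. Mutant replicates 1 and 2 were above every WT pool in expression and replicate 3 was below every one, so the genotypes overlapped (exact permutation test, two-sided, p = 0.5). On average the log2 fold change was 0.16 (SE 0.15, 95% interval −0.18 to 0.50, adjusted p = 0.5 from limma). It was 0.33 without *NOD1-1IS*-/- replicate 3 (adjusted p = 0.0777 from limma) and 0.05 without *NOD1-1IS*-/- replicate 2. The replicates of the mutant differed by more than those of WT (SD 0.30 against 0.13 cycles), and on the linear scale the interval ran from 0.884-fold to 1.41-fold.

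**Figure D2:**
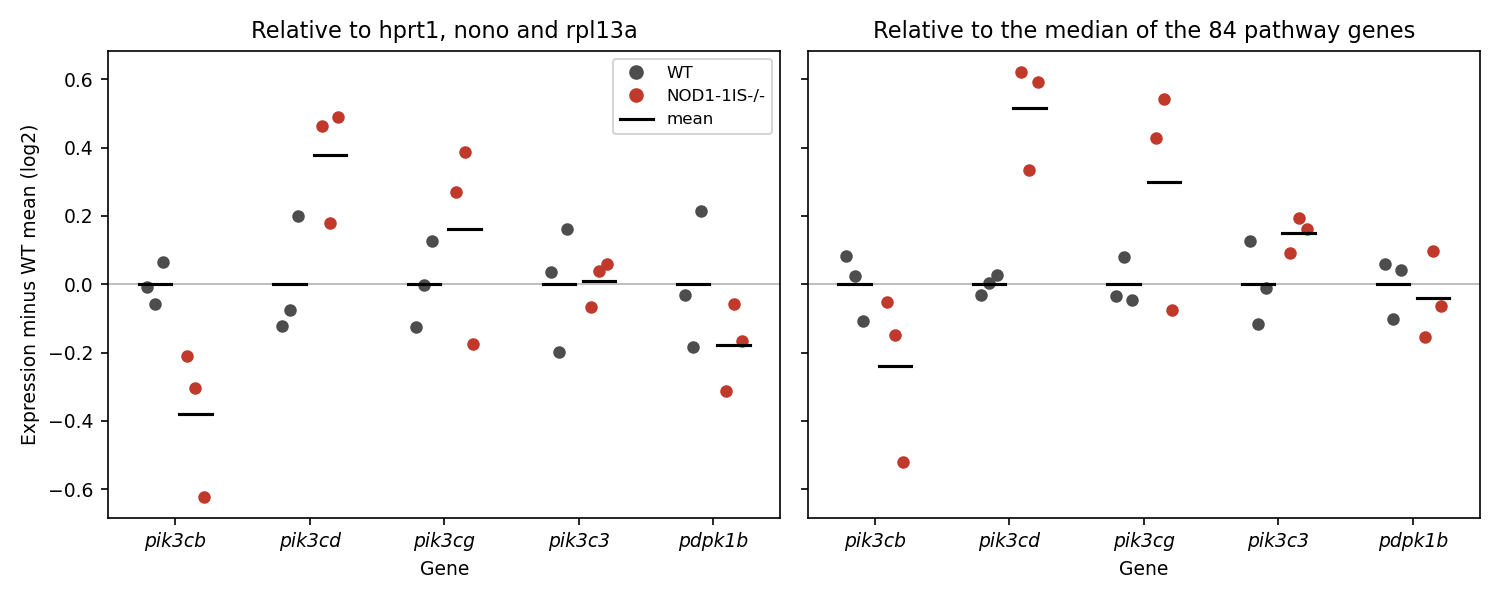
Expression of each gene in each replicate on a log2 scale, as the difference from the WT average of the gene, relative to *hprt1*, *nono* and *rpl13a* (left) and to the median of the 84 pathway genes (right). Points are replicates (grey, WT; red, *NOD1-1IS*-/-) and bars are averages of 3. Only *pik3cb* separates the genotypes on the left and only *pik3cd* on the right. On the left 38.1% of the 84 pathway genes do so, and on the right that share was not counted.

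A further row of the plate, LOC561737 (XM_005155854), is described as like the α isoform of the catalytic subunit, and its gene ID carries the symbol *pik3ca* in the RefSeq gene table of the assembly GRCz12tu. It does not begin with pik3 on the plate and is not counted among the 5 genes. Its ΔCt was 2.04, 1.96 and 2.08 cycles in *NOD1-1IS*-/- and 1.82, 1.93 and 1.89 in WT. The mutant pools were all slightly lower in expression, without overlap, at an average of −0.15 on the log2 scale (SE 0.10, 95% interval −0.37 to 0.07, adjusted p = 0.33 from limma). Centred on the median pathway gene the difference was −0.01 and the genotypes overlapped.

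The gene *pik3c3* (NM_001017550) codes for the class III enzyme Vps34, which makes PI3P on endosomes and autophagosomes and does not feed Akt directly. Its ΔCt was 3.42, 3.32 and 3.29 cycles in the mutant and 3.32, 3.55 and 3.19 in WT. The mutant pools fell inside the range of the WT pools, with a log2 fold change of 0.01 (SE 0.12, 95% interval −0.25 to 0.28, adjusted p = 0.956 from limma). On raw Ct, with no reference, *pik3c3* did not overlap between the genotypes, at 22.68, 22.72 and 22.64 cycles against 23.01, 23.05 and 22.93. This raw difference was 0.31 (adjusted p = 0.0264 from limma). It stands beside one of 0.19 for the median pathway gene and one of 0.21 for the positive PCR control, all on the log2 scale. On raw Ct limma called 21 pathway genes higher and 7 lower, and the share without overlap was not counted. Relative to the positive PCR control *pik3c3* was at 0.10 (adjusted p = 0.898 from limma). In that fit limma gave all genes a common standard error.

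The gene *pdpk1b* (NM_205699) codes for a zebrafish Pdpk1, the kinase that phosphorylates the activation loop of Akt and of related kinases such as S6K, SGK and PKC. Its ΔCt was 0.91, 0.66 and 0.77 cycles in the mutant and 0.63, 0.78 and 0.39 in WT. Mutant replicates 2 and 3 lay between the WT pools and replicate 1 was lower in expression than all of them (exact permutation test, two-sided, p = 0.3). The difference was −0.18 on the log2 scale (SE 0.13, 95% interval −0.47 to 0.11, adjusted p = 0.349 from limma), and −0.04 when centred on the median pathway gene. It was −0.07 without WT replicate 3, the WT pool with the highest expression of *pdpk1b*.

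The choice of reference shifted all genes of a replicate together, so the order of the 5 genes in log2 fold change was the same with every reference. From *pik3cb* up it was followed by *pdpk1b*, *pik3c3*, *pik3cg* and *pik3cd*. The reference genes themselves did not move alike. The raw Ct of *acta1b*, a skeletal muscle actin, was later in the mutant (17.0 ± 0.48 against 16.3 ± 0.38 cycles), and that of *nono* was earlier (21.4 ± 0.12 against 21.9 ± 0.19) (SD, n = 3). The median log2 fold change of the 84 genes was accordingly −0.31 with *nono* alone and 0.89 with *acta1b* alone. A change of reference moves that median and each gene by the same amount. The places of *pik3cd* above the median and of *pik3cb* below it are therefore fixed and do not test the reference. Against 0 itself *pik3cb* turned positive with *b2m* alone (0.09) and *acta1b* alone (0.63). With all 5 reference genes, *pik3cd* (log2 fold change 0.67, adjusted p = 0.00323) and *pik3cg* (0.45, adjusted p = 0.0221) were called higher by limma and *pik3cb* was at −0.08.

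**Figure D3:**
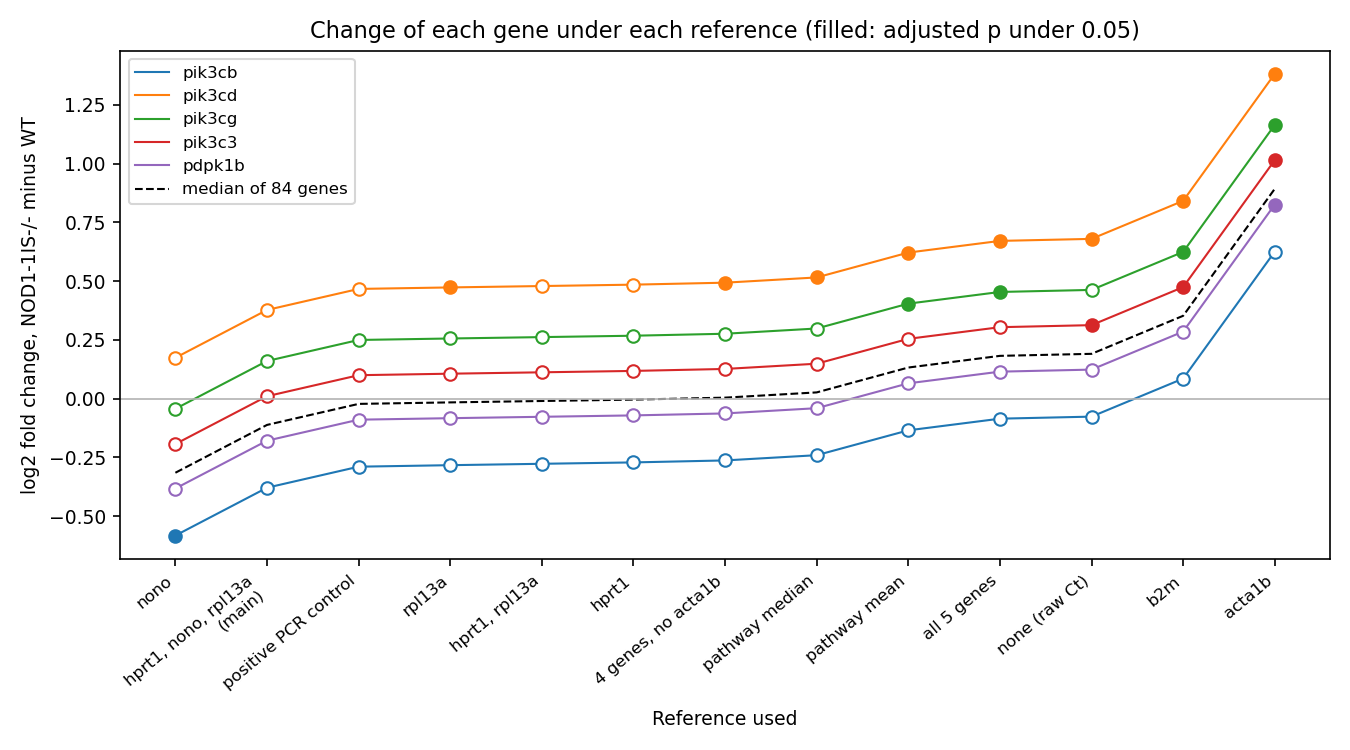
The log2 fold change (*NOD1-1IS*-/- minus WT) of each of the 5 genes under 13 references on the horizontal axis, with filled points for an adjusted p under 0.05 in limma and the median of the 84 genes as a dashed line. All lines run in parallel, *pik3cd* stays on top and above 0, and *pik3cb* stays lowest but crosses 0 with *b2m* and *acta1b* alone.

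The difference in Ct between 2 genes of the same replicate uses no reference gene at all, and shows whether the balance between them differed between genotypes. For each of the 10 pairs among the 5 genes this log2 ratio was computed in every replicate. It did not overlap between the genotypes in 6 pairs (60%), beside 45.4% of the 3486 pairs of the 84 genes. Each of these 6 pairs had the smallest p that the design allows (exact permutation test, two-sided, p = 0.1 for each, 0.167 after adjustment over the 10 pairs). Pairs that share a gene are not independent, and 3 of the 6 contain *pik3cb* and 3 contain *pik3cd*, with 1 pair common to both. The pairs were added after the values of the single genes were seen, so the ratios are a description of these pools.

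The largest difference was between the p110δ and p110β genes. The log2 ratio of *pik3cd* over *pik3cb* was −1.80, −1.99 and −1.36 in the mutant and −2.59, −2.49 and −2.34 in WT. Every mutant pool held more *pik3cd* for its *pik3cb* than any WT pool, by 0.76 on the log2 scale or 1.69-fold on average. The ratio of *pik3cg* over *pik3cb* was −3.14, −2.93 and −3.18 in the mutant and −3.74, −3.56 and −3.56 in WT. This ratio was also higher in all 3 mutant pools, by 0.54, although *pik3cg* itself overlapped on ΔCt.

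Beside the kinase that acts below the class I enzymes, the log2 ratio of *pik3cd* over *pdpk1b* was −4.62, −5.15 and −4.74 in the mutant and −5.48, −5.29 and −5.41 in WT. All mutant pools held more *pik3cd* for their *pdpk1b*, by 0.56 or 1.47-fold. The ratio of *pik3c3* over *pdpk1b* also lay apart, by 0.19, while those of *pik3cg* over *pdpk1b* and *pdpk1b* over *pik3cb* overlapped between genotypes (differences of 0.34 and 0.20, exact permutation test, two-sided, p = 0.2 and 0.3). The class III gene *pik3c3* was higher relative to *pik3cb* in every mutant pool than in any WT pool, by 0.39. The ratio of *pik3cd* over *pik3c3* was likewise higher in every mutant pool, by 0.37.

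**Figure D4:**
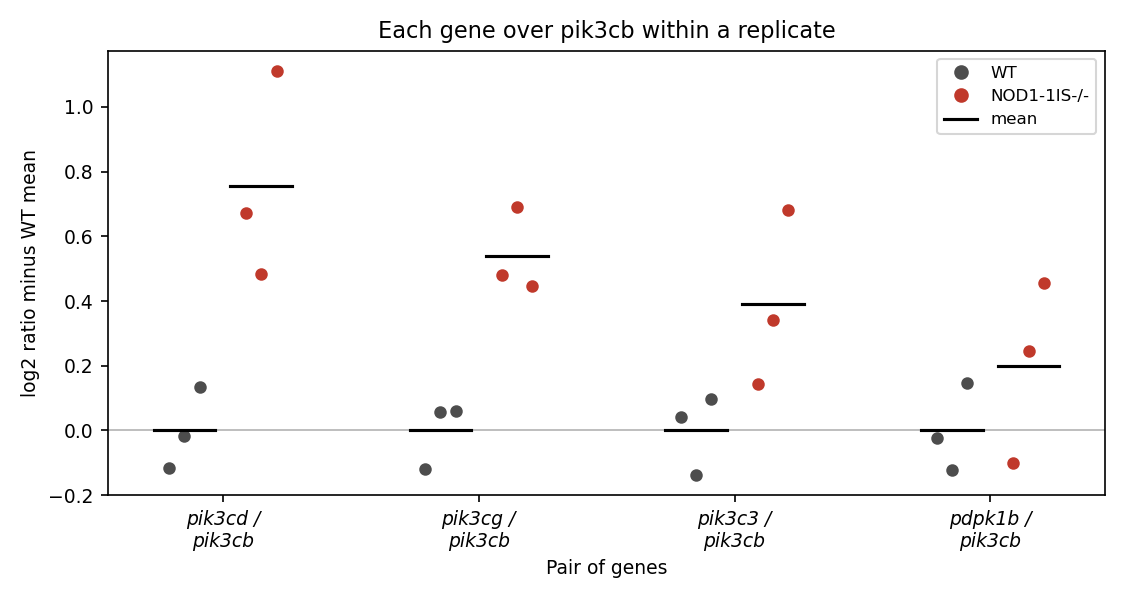
The log2 ratio of each of the other four genes over *pik3cb* within a replicate, as the difference from the WT average (grey, WT; red, *NOD1-1IS*-/-; bars, averages of 3). The genotypes are apart for *pik3cd*, *pik3cg* and *pik3c3*, with average differences of 0.76, 0.54 and 0.39, and overlap for *pdpk1b*. All these ratios share *pik3cb* and are not independent. Of the 3486 pairs of pathway genes on the plate, 45.4% are apart.

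The genes that feed the PI3K enzymes and those that lie below them were counted in the same fit, in lists made from symbols, and are to be read against the 19% called lower and 3.57% called higher over all 84 genes, a split that turned to 7 lower and 19 higher genes with all 5 reference genes. Of 7 genes for insulin and IGF ligands, receptors, binding protein, substrate and Ras, 1 was called lower, *irs1* (log2 fold change −0.90, adjusted p = 0.000429 from limma), which couples the insulin receptor to PI3K, and 1 was called higher, *ins* (0.86, adjusted p = 0.0110 from limma). Of 7 genes for Akt kinases, the Akt substrate Akt1s1, Gsk3b, the TSC complex and Rheb, 2 were called lower, namely *akt2l* (−6.30) and *akt2* (−0.40), and 0 were called higher. Of 5 genes of the mTOR complexes, *deptor* was called lower (−0.37) and *mlst8* higher (0.37). Of 8 genes for other kinases that Pdpk1 can phosphorylate, *rps6ka2* was called lower (−1.26) and 0 were called higher. The median log2 fold change was −0.13 for the inputs, −0.12 for Akt and the genes listed with it, −0.14 for the mTOR complexes and −0.22 for the other Pdpk1 substrates. It was −0.11 over all 84 genes and 0.01 for the 5 genes described here, which is the value of *pik3c3*. LOC561737, which is not among these 5, was at −0.15. The adjusted p of *akt2* was 0.0324 in limma, at a log2 fold change near that of *pik3cb* (−0.38, adjusted p = 0.0552). The genes of these lists are given relative to *hprt1*, *nono* and *rpl13a* only. With all 5 reference genes each log2 fold change moves up by 0.29.

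With the main reference *pik3cb* had the largest absolute log2 fold change of the 5 genes by a narrow margin (−0.3787 against 0.3777 for *pik3cd*), whereas *pik3cd* had the larger one with every other reference except *nono* alone. The pattern of *pik3cb* on this reference was most like that of *ikbkb* (Pearson r = 0.967 over the 6 replicates), *mapk3* (r = 0.962) and *rhoab* (r = 0.942). These values are a description, as all genes of a replicate share its RNA pool, plate and reference average, and both genotypes are included. As the genes were picked by likeness to *pik3cb* over both genotypes, their direction follows from that choice and is no separate result. Of these genes, *ikbkb* was called lower (log2 fold change −0.50, adjusted p = 0.0383 from limma), and *mapk3* (−0.49, adjusted p = 0.0755) and *rhoab* (−0.31, adjusted p = 0.0602) were not.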

How the data were processed

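Total RNA of pooled larvae was reverse transcribed (1000 ng, SuperScript III) and amplified with SYBR Green for 40 cycles on a LightCycler, with 1 well per gene and replicate. The deposited raw values of the authors are Ct values in cycles, and the settings of threshold and baseline are not given in the sources used here. The authors also deposited a normalized ratio for each gene, which is 2 raised to −ΔCt and already averaged by genotype. It was used only to find its reference genes, which were *hprt1*, *nono* and *rpl13a* among 31 combinations tried (largest log2 difference 4e-07). A deposited column of the authors' ratio between genotypes was not used.

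Column names gave genotype and replicate number. −ΔCt was fitted with limma 3.58.1 (lmFit and eBayes in R 4.3.3). P-values are two-sided, adjusted by Benjamini-Hochberg for the 84 pathway genes, and called under 0.05. Single genes and pairs of genes were compared with an exact permutation test. The fit was tested on simulated data. No gene was filtered. Results for 1 further gene of the design and 1 gene of a pathway list are not reported here, and both stayed in the fit. PCR arrays have no read depth, and 3 replicates limit the precision.

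The genes named are the 5 members, the reference genes, members of the lists past the threshold and the 3 genes most like *pik3cb*. The members and lists were chosen with earlier results of these data known. LOC561737 and the pairs of genes were added after the values were seen. Alternatives were other references, a limit on late Ct, each replicate left out, a replicate block, a trend with a robust prior and linear averages. By accession, 2 of the 5 genes matched the RefSeq table of GRCz12tu, and *pik3cb*, *pik3cg* and *pik3c3* matched by symbol alone. Coordinates are left out, as the deposited tables state no build.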

Additional observations from a re-analysis of the deposited data

How the results depend on the processing

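The number of the 5 genes called depended on the reference and on single settings. The main setting called 0 lower and 0 higher. One gene, *pik3cb*, was called lower with *nono* alone, with genes limited to a mean Ct of at most 26 cycles (which leaves out *pik3cg* and tests fewer genes) and with the trend and robust prior, so the count was 1 in each. The count of higher genes was 4 with *acta1b* alone, 3 with *b2m* alone, 2 with all 5 reference genes, with the mean of the pathway genes and with raw Ct, and 1 with 4 reference genes without *acta1b*, with *rpl13a* alone and with the median of the pathway genes. Leaving out 1 replicate gave 0 to 1 lower and 0 to 1 higher, the latter *pik3cd* without *NOD1-1IS*-/- replicate 2. Counting LOC561737 as well changed neither count. In the fits with *nono*, *b2m* or *acta1b* alone, with the positive PCR control and with the replicate block, limma gave all genes 1 common standard error.

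Over all 84 genes, 16 lower and 3 higher became 7 and 19 with all 5 reference genes, 10 and 5 with 4, 3 and 55 with *acta1b* alone, 5 and 39 with *b2m* alone, 29 and 1 with *nono* alone, 10 and 5 with *rpl13a* alone, 9 and 18 with the mean and 9 and 7 with the median of the pathway genes, and 7 and 21 with raw Ct. With *hprt1* and *rpl13a*, and with *hprt1* alone, 10 were lower, and with the positive PCR control 9. Without single replicates, 10 to 15 were lower and 0 to 4 higher, with 10 and 0 without WT replicate 3, and 1 higher without WT replicate 1, WT replicate 2 or *NOD1-1IS*-/- replicate 2.

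Some signs turned. A change of reference moves every gene by the same amount, and why the reference genes moved unlike each other was not tested. For *pdpk1b* the log2 fold change was 0.12 with all 5 reference genes, 0.83 with *acta1b* alone, 0.29 with *b2m* alone, 0.0655 with the mean of the pathway genes and 0.12 with raw Ct. For *pik3cb* it was 0.63 with *acta1b* alone and 0.09 with *b2m* alone. With *nono* alone it was −0.19 for *pik3c3* and −0.0430 for *pik3cg*. Leaving out 1 replicate moved *pik3c3* between −0.0879 and 0.0915, and the other genes kept their sign.

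The replicate numbers were not used to pair the samples in the main fit. The correlation of deviations between same-numbered replicates was −0.222, 0.086 and −0.049, and 0 of 3 were over 0.1. Between replicates of different numbers it ran from −0.354 to 0.456. With 3 replicates per genotype these values cannot decide whether any of them shared a run. With the number as a replicate block, 0 of the 5 genes were called, with *pik3cb* at −0.38 (adjusted p = 0.0791 from limma).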
